A study of Mus musculus with 16 samples.

Results

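The 37 genes described here drive or accompany cell division: mitotic kinases and cyclins, proteins of the spindle and the chromosomes, the licensing and fork proteins of DNA replication, enzymes of deoxynucleotide synthesis, cyclins of G1 (the growth phase before DNA synthesis) and inhibitors of the cyclin-dependent kinases. They were taken from the deposited table of 54532 genes as the entries whose gene name was on this list, and all 37 were present. RNA sequencing of whole mouse retina at day 12 after birth provided the values, with 4 libraries in each of 4 groups. BALBc hyperoxia and C57 hyperoxia mice breathed 75% oxygen from day 7 until collection, the stage of oxygen-induced retinopathy when the retina loses capillaries. BALBc normoxia and C57 normoxia mice of the same age stayed in room air. The labels name no transgene or drug. The design text sets resistance against susceptibility and names neither strain. The labels do not tie libraries to separate animals, and p-values here measure only the spread between these libraries.

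A dividing cell commits to DNA synthesis when cyclin D and cyclin E kinases inactivate the retinoblastoma proteins and free the E2F transcription factors, whose targets include the MCM helicase genes, Pcna and the enzymes that make deoxynucleotides. The genes of mitosis switch on later. They are controlled by DREAM and B-MYB complexes, which bind CHR elements, and by the NF-Y factor, which binds CCAAT boxes in their promoters. In the mouse retina, progenitor cells stop dividing during early postnatal life and neurons then leave the cycle for good under inhibitors such as Cdkn1b and Cdkn2d, while blood vessel cells go on dividing as the vascular layers form.

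These 2 classes of promoter could be read in the sequence upstream of the genes. RefSeq promoter windows (GRCm38.p6, from 250 bases before to 50 bases after the gene start) were found for 31 of the 37 genes, and the 6 others, Tpx2, Ccnd1, Kif20a, Aurkb, Mcm4 and Ccna2, were not examined. Cdk1 and Top2a are printed as mitotic promoters, and Bub1b, Mcm6 and Cdkn2d because their levels differed most clearly between groups. Capitals mark 3 elements, each searched on both strands. The CHR element was searched as TTTGAA, which reads TTCAAA on the other strand. The CCAAT box was searched by its name, and it reads ATTGG on the other strand. The E2F element was searched as TTTCGCGC or TTTGGCGC, which read GCGCGAAA and GCGCCAAA on the other strand. The windows lie at chr10:69352863-69353162 on the minus strand, chr11:99024140-99024439 on the minus strand, chr2:118597961-118598260 on the plus strand, chr1:128359656-128359955 on the minus strand and chr9:21291160-21291459 on the minus strand, and each reads 5′ to 3′ along its gene.
Cdk1: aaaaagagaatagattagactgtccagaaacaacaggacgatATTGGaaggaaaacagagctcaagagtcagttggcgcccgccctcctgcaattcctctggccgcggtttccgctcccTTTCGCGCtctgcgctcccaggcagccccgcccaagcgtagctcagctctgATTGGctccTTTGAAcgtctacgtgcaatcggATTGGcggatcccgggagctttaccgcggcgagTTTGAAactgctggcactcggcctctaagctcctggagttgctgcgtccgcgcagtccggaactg
Top2a: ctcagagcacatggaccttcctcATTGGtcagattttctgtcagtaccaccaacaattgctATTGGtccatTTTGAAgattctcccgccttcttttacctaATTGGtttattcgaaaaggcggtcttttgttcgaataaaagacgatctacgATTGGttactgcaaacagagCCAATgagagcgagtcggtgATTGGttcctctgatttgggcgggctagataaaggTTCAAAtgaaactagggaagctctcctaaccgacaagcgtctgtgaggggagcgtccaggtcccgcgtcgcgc
Bub1b: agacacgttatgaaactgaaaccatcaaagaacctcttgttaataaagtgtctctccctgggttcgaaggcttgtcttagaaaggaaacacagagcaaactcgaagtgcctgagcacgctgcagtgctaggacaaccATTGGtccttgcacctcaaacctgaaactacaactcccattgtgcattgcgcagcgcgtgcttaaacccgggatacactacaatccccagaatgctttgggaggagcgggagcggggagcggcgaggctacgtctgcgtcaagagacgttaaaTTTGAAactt
Mcm6: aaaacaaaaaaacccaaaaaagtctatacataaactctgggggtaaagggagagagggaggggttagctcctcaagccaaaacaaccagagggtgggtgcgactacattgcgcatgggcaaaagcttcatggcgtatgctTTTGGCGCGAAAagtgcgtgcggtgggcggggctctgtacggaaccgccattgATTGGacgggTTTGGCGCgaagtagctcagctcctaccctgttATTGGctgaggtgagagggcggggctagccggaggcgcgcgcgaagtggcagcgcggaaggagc
Cdkn2d: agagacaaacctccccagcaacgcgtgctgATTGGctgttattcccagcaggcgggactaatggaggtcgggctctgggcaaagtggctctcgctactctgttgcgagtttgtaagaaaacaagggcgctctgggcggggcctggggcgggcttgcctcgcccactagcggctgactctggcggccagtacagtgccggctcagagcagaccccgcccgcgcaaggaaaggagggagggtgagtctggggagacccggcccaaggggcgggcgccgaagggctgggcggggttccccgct
The CHR letters stood in 14 of 19 mitotic promoters (73.7%), in 1 of 9 replication and deoxynucleotide promoters (11.1%, Mcm2) and in 0 of 3 promoters of G1 cyclins and CDK inhibitors, against 20.2% of the promoters of all 27025 genes with a window. The E2F letters were in 1 of the 19 mitotic promoters (Cdk1) and in 4 of the 9 replication and deoxynucleotide promoters (Mcm3, Mcm5, Mcm6 and Mcm7), against 0.929% of all genes. CCAAT letters were common to both classes, at 17 of 19 and 8 of 9, and stood in 41.1% of all genes. In these 31 genes, 2 matches of different motifs overlapped. A match is a run of letters in the reference assembly of the C57BL/6J strain, and BALBc sequence was not analysed here.

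Whole reads recovered from the FPKM values came to between 16.7 M and 29.7 M per library, with a median of 20.5 M. FPKM is a count of fragments scaled for gene length and library size. The libraries varied in ways that the groups did not explain. Rod photoreceptor RNA was uneven: Gnat1, rod transducin, was at 608, 2575, 2804 and 1095 FPKM in BALBc hyperoxia, 2275 to 2964 FPKM in BALBc normoxia, 1051 to 1176 FPKM in C57 hyperoxia, and 612, 476, 2924 and 2223 FPKM in C57 normoxia. The summed FPKM of 8 lens crystallin and lens fibre markers ran from 1.98 to 4028 among the C57 hyperoxia libraries alone. Sex was unevenly spread as well. All 4 C57 hyperoxia libraries had Xist, the RNA of the inactive X chromosome, at 61.8 to 105 FPKM with the Y-linked Ddx3y at 0. By contrast, C57 normoxia replicates 1 to 3 had Ddx3y at 11.9 to 16.6 FPKM and Xist at no more than 0.034 FPKM, and replicate 4 had both transcripts. In C57 the response to hyperoxia and sex therefore cannot be told apart, beyond what the sex covariate below gives. The BALBc groups were mixed. Ddx3y was at 0.028, 0, 1.61 and 20.5 FPKM in BALBc hyperoxia and 16.45, 18.2, 0.755 and 0 FPKM in BALBc normoxia. Comparisons of the strains therefore also set groups of unlike sex against each other. The tissue label held in that rod, cone, bipolar, amacrine and Müller glia markers were all present, which does not show retina alone. Summed FPKM of 6 pigment epithelium markers was 63.75, 283, 360 and 133 in BALBc hyperoxia and 101.6 to 147 in BALBc normoxia. In C57 it was 94.2 to 161 in hyperoxia and 49.6 to 166 in normoxia.

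As a group these genes were low. Mean FPKM over the 16 libraries ranged from 0.0802 for Kif23 to 35.3 for Pcna, with a median of 0.844. Several proliferation markers of a cycling tissue sat near the bottom, with Mki67 at 0.246, Top2a at 0.254, Cdk1 at 0.250, Ccnb1 at 0.182 and Aurkb at 0.111 FPKM. The mitotic genes with a mean above 1 FPKM were Ccna2 (4.80 FPKM), Bub1b (2.16 FPKM), Plk1 (1.89 FPKM) and Aurka (1.02 FPKM). Means above 10 FPKM were found for 3 genes, the sliding clamp Pcna (35.3 FPKM) and the CDK inhibitors Cdkn1b (27.5 FPKM) and Cdkn2d (16.8 FPKM). Each of these also acts outside dividing cells, Pcna in DNA repair and the inhibitors in neurons that have left the cycle. Some of the genes listed as markers of retinal progenitors were low too, and those named were chosen after their values were seen. Fgf15 lay between 0.047 and 0.266 FPKM over the 16 libraries, Atoh7 between 0.045 and 0.633 FPKM and Sfrp2 between 0.090 and 1.63 FPKM, and Foxn4 and Olig2 were at 0 in at least 1 library. In whole tissue, fewer cells of a type and less RNA per cell cannot be told apart.

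**Figure D1:**
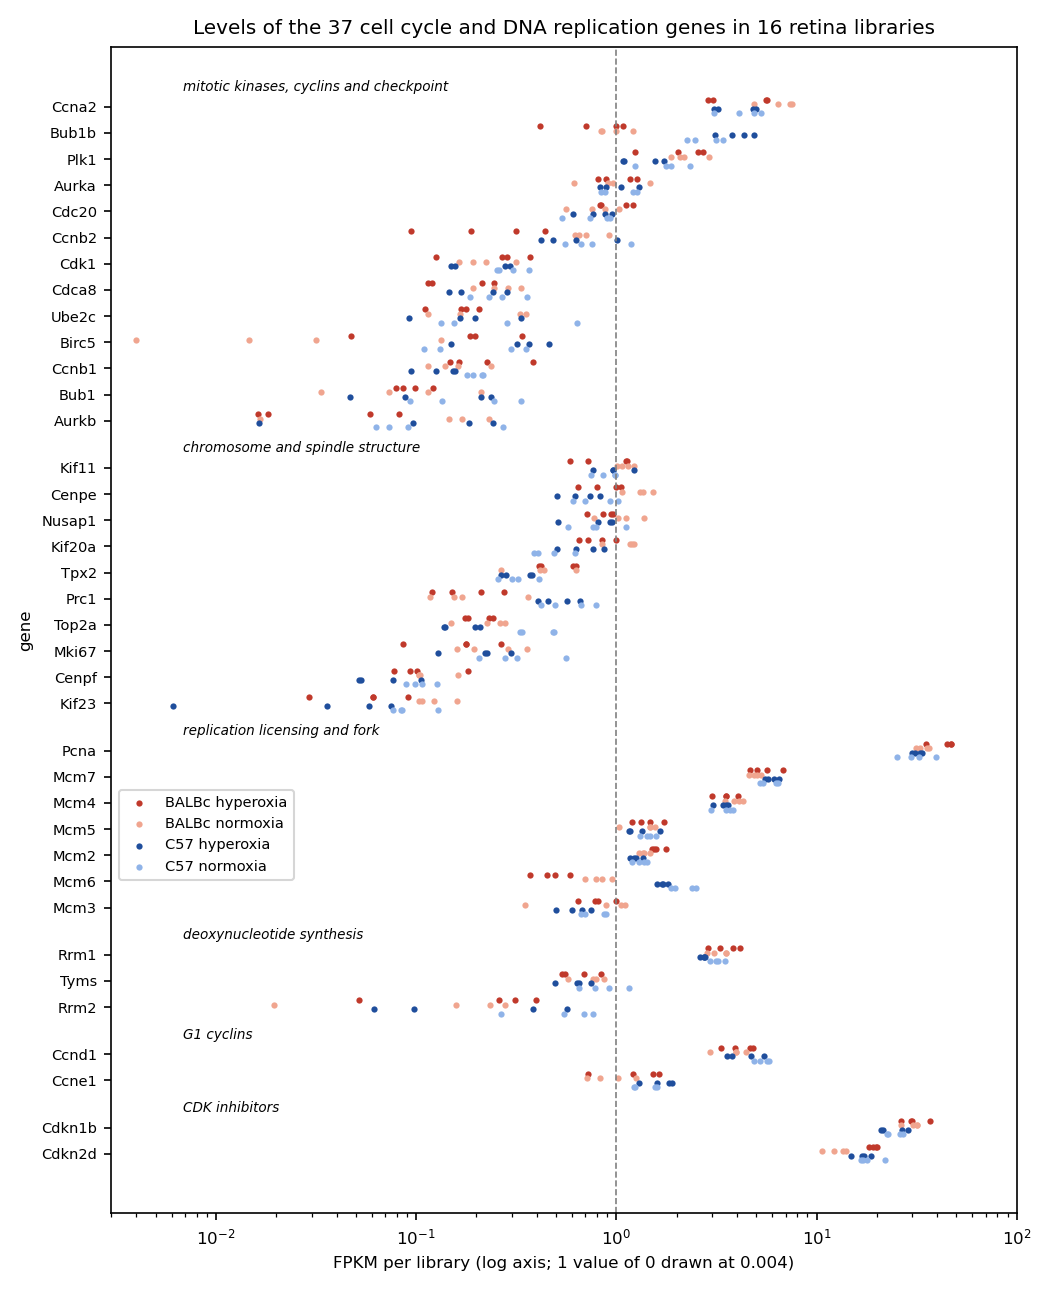
FPKM of each of the 37 genes in each of the 16 libraries on a log axis, in BALBc hyperoxia, BALBc normoxia, C57 hyperoxia and C57 normoxia, grouped by role and sorted by mean within a role. The dashed line marks 1 FPKM. Pcna, Cdkn1b and Cdkn2d stand above 10 FPKM, most mitotic genes stand below the line, and Bub1b, Mcm6 and Prc1 separate by strain.

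Genes were tested as log2(FPKM + 0.5) in a limma model of the 4 groups, where at least 4 libraries had 1 FPKM or more, with p-values adjusted over all 14953 genes tested and a threshold of 0.05. The added 0.5 makes changes of low genes look smaller than the ratio of their FPKM. Of the 37 genes, 19 passed this filter: 4 of 13 mitotic kinases, cyclins and checkpoint genes, 4 of 10 chromosome and spindle genes, 6 of 7 replication genes, 1 of 3 deoxynucleotide genes, both G1 cyclins and both CDK inhibitors. The 18 others had means between 0.0802 and 0.844 FPKM and were examined in a second fit with a filter of 0.1 FPKM in 4 libraries, which all 37 passed among 24013 genes.

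Hyperoxia took 1 of the 37 genes past the threshold. In BALBc, Cdkn2d rose (log2 change 0.60, SE 0.10, limma adjusted p = 0.0362), and it was the 1 of 19 genes past the threshold, where 0.161% of all genes tested passed. Groups that did not overlap were seen for 4 of the 19, Cdkn2d and Mcm2 with higher and Cenpe and Mcm6 with lower values in BALBc hyperoxia than in BALBc normoxia, against 8.82% of all genes. An unadjusted p under 0.05 was reached by 5 of the 19 (2 higher, 3 lower), against 14.2% of all genes.

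In C57, hyperoxia left 0 of the 19 past the threshold in limma, where 0.334% of all genes passed, and 1 (Bub1b, higher) had an unadjusted p under 0.05, against 13.3% of all genes. Groups were apart for 2 of the 19, Mcm6 and Rrm1, both lower in C57 hyperoxia than in C57 normoxia, against 7.63% of all genes. The limma voom fit to the recovered reads also called 0 in C57. For the mean response over both strains limma called 0 of 19, against 1.79% of all genes, and voom called 1, Mcm6. An unadjusted p under 0.05 was reached by 4 of the 19 for that mean (1 higher, 3 lower), near the 17.3% of all genes. For the difference between the responses of the strains limma called 0 of 19, 0% of all genes passed, and voom also called 0. An unadjusted p under 0.05 was found there for 3 of the 19 (1 higher, 2 lower) and for 9.56% of all genes. The median log2 change of the 19 was 0.02 in BALBc and -0.03 in C57, close to the -0.00 and 0.01 over all genes tested.

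**Figure D2:**
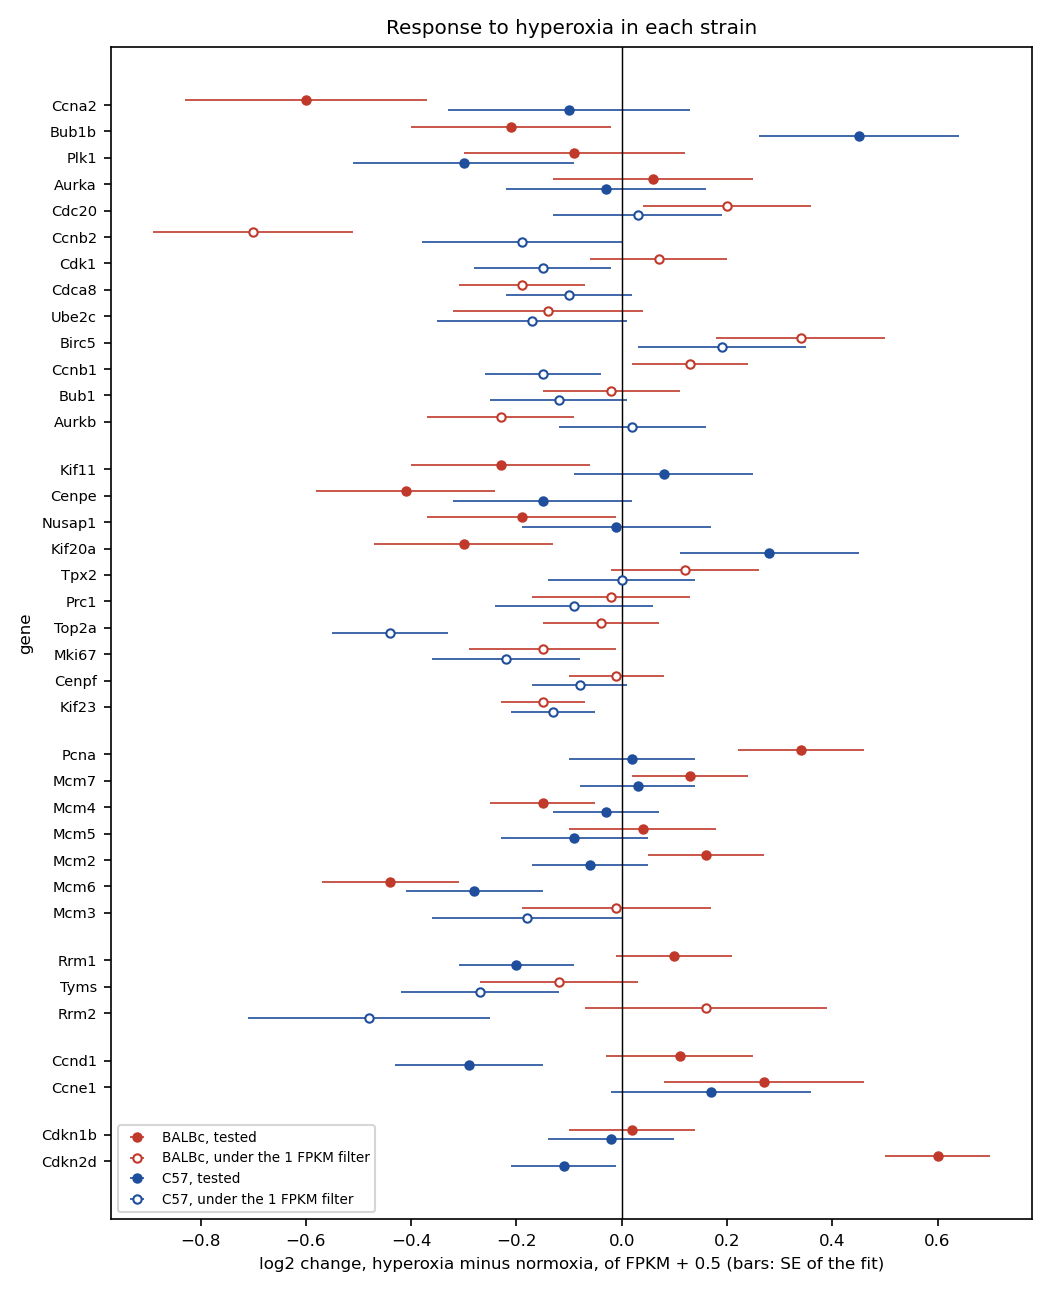
Log2 change with hyperoxia (hyperoxia minus normoxia, of FPKM + 0.5) of each of the 37 genes in BALBc and C57, by role, with the standard error of the fit. Filled points passed the 1 FPKM filter and open points come from the fit with the 0.1 FPKM filter. Cdkn2d stands at 0.60 in BALBc and -0.11 in C57, Ccnb2 at -0.70 and -0.19, and Top2a at -0.04 and -0.44.

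The strains differed at more of these genes than the oxygen conditions did. In hyperoxia 4 of the 19 passed (21.1%), close to the 22.6% of all genes: Bub1b and Mcm6 were lower, and Pcna and Rrm1 were higher, in BALBc than in C57. With each library scaled to the same sum of FPKM (TPM scaling), the calls in hyperoxia were 0 higher and 2 lower in place of 2 higher and 2 lower, and the median of all genes was -0.14 in place of 0.01. Groups were apart in hyperoxia for 5 of the 19 (26.3%), against 21.4% of all genes, with Mcm2 added to the 4 called. With the sex covariate 3 passed in hyperoxia, Bub1b and Mcm6 lower and Plk1 higher in BALBc. In normoxia 4 of the 19 passed the threshold (21.1%), where 9.08% of all genes did: Bub1b, Mcm6 and Cdkn2d were lower and Kif20a was higher in BALBc than in C57. In normoxia the groups were apart for 7 of the 19 (36.8%), against 18% of all genes, with Cenpe, Kif11 and Ccnd1 added to those 4. Whether the strain difference itself depended on oxygen is what the difference of the responses tests.

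**Figure D3:**
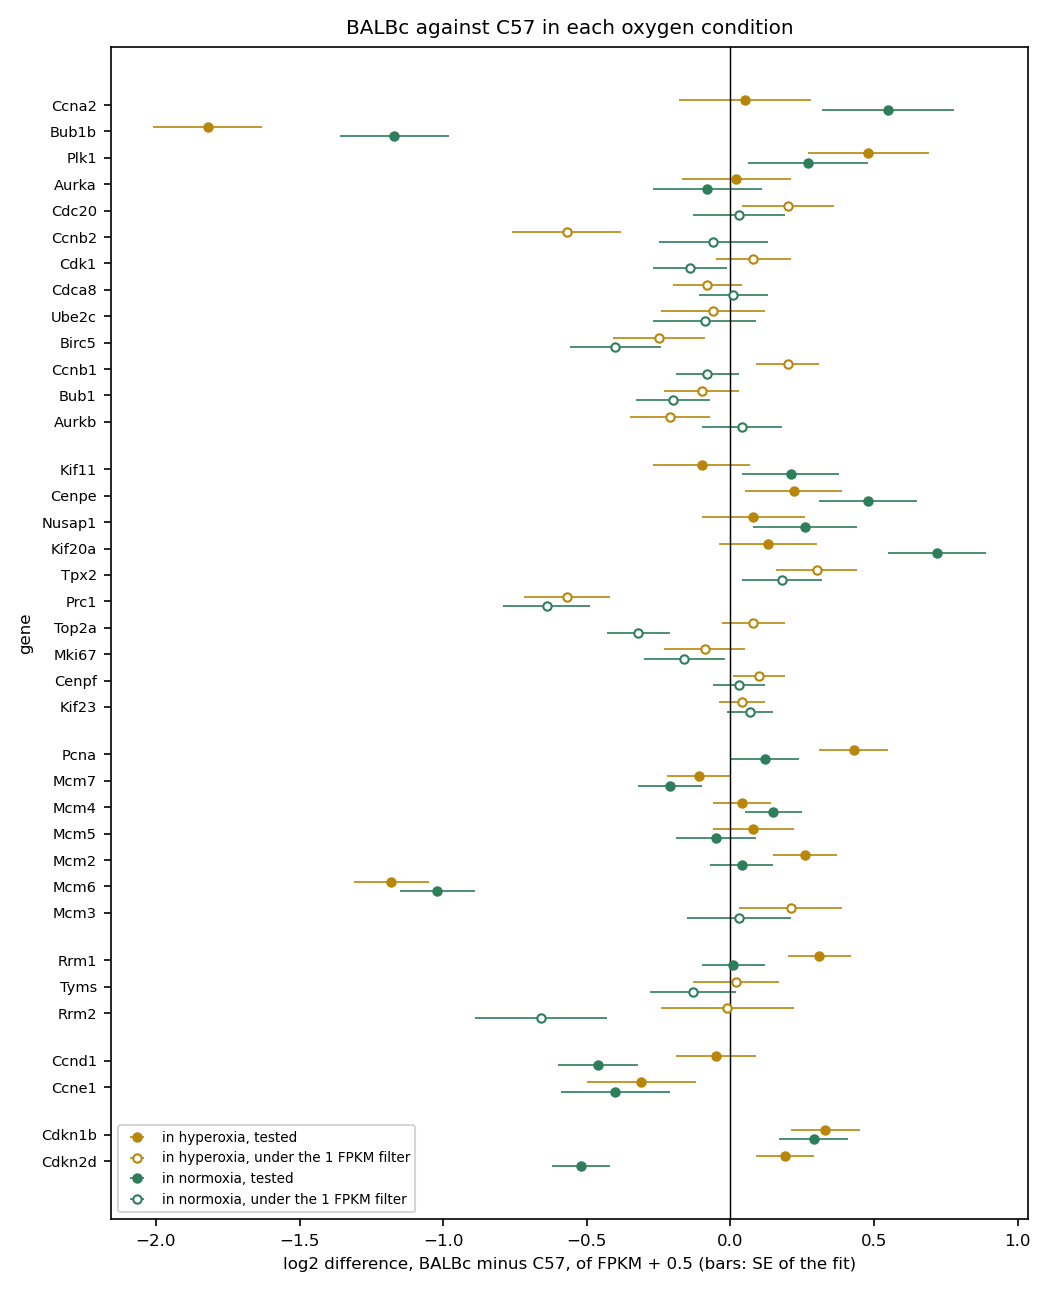
Log2 difference between strains (BALBc minus C57, of FPKM + 0.5) of each of the 37 genes in hyperoxia and in normoxia, by role, with the standard error of the fit. Filled points passed the 1 FPKM filter and open points come from the fit with the 0.1 FPKM filter. Bub1b (-1.82 in hyperoxia, -1.17 in normoxia) and Mcm6 (-1.18 and -1.02) lie farthest to the left.

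Among the mitotic kinases, cyclins and checkpoint genes, the strain difference of Bub1b stood out. Bub1b encodes BubR1, a pseudokinase of the spindle assembly checkpoint that delays anaphase until all chromosomes are attached (GRCm38 chr2:118598211-118641591, plus strand). Its levels were 0.416, 1.08, 0.999 and 0.705 FPKM in BALBc hyperoxia and 0.84, 0.847, 1.21 and 1.0 FPKM in BALBc normoxia. In C57, Bub1b was at 4.37, 4.87, 3.8 and 3.1 FPKM in hyperoxia and 2.26, 3.15, 3.42 and 2.46 FPKM in normoxia. Every BALBc library was below every C57 library in both oxygen conditions, and the C57 hyperoxia libraries overlapped those of C57 normoxia. Means were 0.80 ± 0.302 FPKM in BALBc hyperoxia and 4.03 ± 0.757 FPKM in C57 hyperoxia (SD, n = 4 each), a ratio of 0.198. They were 0.973 ± 0.172 FPKM in BALBc normoxia and 2.82 ± 0.551 FPKM in C57 normoxia (SD, n = 4 each), a ratio of 0.345. The limma log2 difference was -1.82 (SE 0.19, adjusted p = 5.49e-06) in hyperoxia and -1.17 (SE 0.19, adjusted p = 0.000616) in normoxia. Within a strain, the log2 change with hyperoxia was -0.21 (SE 0.19, adjusted p = 0.657) in BALBc and 0.45 (SE 0.19, adjusted p = 0.306) in C57 by limma, and the difference of these responses had an unadjusted p of 0.0245 and an adjusted p of 0.462. The strain difference of Bub1b passed the threshold in all 29 other settings that were run. In the annotation no other gene shares exon bases with Bub1b.

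Ccna2, cyclin A2, which works with CDK2 in S phase and with CDK1 at mitotic entry, had the highest level in this role. It was at 5.58, 3.02, 2.88 and 5.64 FPKM in BALBc hyperoxia and 7.55, 4.88, 7.39 and 6.43 FPKM in BALBc normoxia. In C57, Ccna2 was at 3.22, 3.06, 4.99 and 4.84 FPKM in hyperoxia and 4.89, 5.3, 3.07 and 4.11 FPKM in normoxia. The lowest BALBc normoxia library was below the highest BALBc hyperoxia libraries, and the log2 change in BALBc was -0.60 (SE 0.23, adjusted p = 0.25) by limma, with an unadjusted p of 0.0192. Its strain difference was 0.05 (SE 0.23, adjusted p = 0.903) in hyperoxia and 0.55 (SE 0.23, adjusted p = 0.162) in normoxia, and its change in C57 was -0.10 (SE 0.23, adjusted p = 0.89). Within BALBc hyperoxia the higher values of Ccna2 were in replicates 1 and 4, the libraries with less Gnat1, and within C57 normoxia they were in replicates 1 and 2, again those with less Gnat1. Without the 4 libraries low in Gnat1 (under 0.5 times the highest in their own group, a setting chosen after seeing the data, which leaves 2 libraries in BALBc hyperoxia and 2 in C57 normoxia), Ccna2 was called lower in BALBc, with Pcna and Cdkn2d called higher. In that setting 12.7% of all genes were called. Of the exon bases of Ccna2, 12.5% are shared with Exosc9 on the opposite strand, and without a stated strand setting the reads of the pair cannot be told apart.

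Plk1, the polo-like kinase of mitotic entry, lay between 1.08 and 2.89 FPKM, and Aurka, the Aurora kinase of centrosomes, between 0.616 and 1.48 FPKM over all libraries. Their log2 changes with hyperoxia were -0.09 and 0.06 in BALBc, and -0.30 and -0.03 in C57, with limma adjusted p of at least 0.569. The other 9 genes of this role were under the 1 FPKM filter.

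Of these low genes, Ccnb2, cyclin B2, a partner of CDK1, was at 0.44, 0.315, 0.188 and 0.0938 FPKM in BALBc hyperoxia and 0.651, 0.621, 0.702 and 0.92 FPKM in BALBc normoxia. In C57, Ccnb2 was at 0.483, 0.422, 0.63 and 1.0 FPKM in hyperoxia and 0.758, 1.18, 0.556 and 0.669 FPKM in normoxia. All 4 BALBc hyperoxia libraries were below all 4 BALBc normoxia libraries, with 3 to 14 reads against 20 to 29 reads, and the C57 groups overlapped. The mean in BALBc hyperoxia was 0.358 times that in BALBc normoxia. In the fit with the 0.1 FPKM filter, 0.0999% of all genes passed in BALBc. The log2 change of Ccnb2 there was -0.70 (SE 0.19, adjusted p = 0.155) by limma, which missed the threshold, and in C57 it was -0.19 (SE 0.19, adjusted p = 0.779). A copy of the gene, Ccnb2-ps, reached 5.59 FPKM, and reads of near-identical copies may be shared between them. Ccnb1, the other cyclin B, was at 0.0944 to 0.157 FPKM in C57 hyperoxia, below the 0.179 to 0.214 FPKM of C57 normoxia in every library, with a log2 change of -0.15 (SE 0.11, adjusted p = 0.671) by limma that did not pass, and it overlapped in BALBc. Birc5, survivin of the chromosomal passenger complex, was at 0.339, 0.0473, 0.186 and 0.197 FPKM in BALBc hyperoxia and 0.0147, 0.133, 0.0316 and 0 FPKM in BALBc normoxia, where 1 library had no read (3 reads would have been 0.0428 FPKM). These groups overlapped, as did those of C57, at 0.149 to 0.459 FPKM in hyperoxia and 0.109 to 0.354 FPKM in normoxia. Its partners Cdca8 and Aurkb, the checkpoint kinase Bub1, the mitotic kinase Cdk1 and Ube2c, which works with the anaphase-promoting complex, all had means between 0.111 and 0.250 FPKM. Cdc20, the activator of that complex, averaged 0.844 FPKM.

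**Figure D4:**
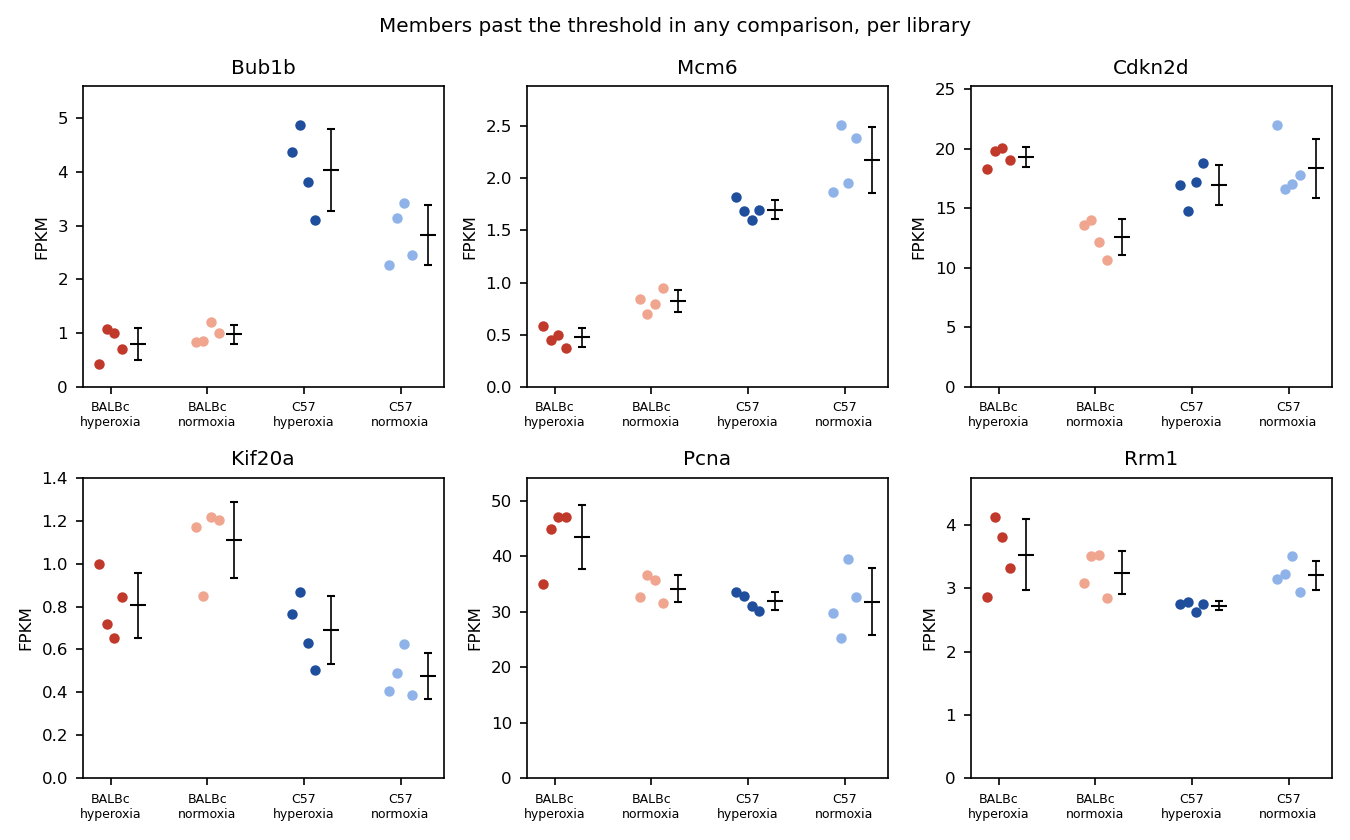
FPKM per library, with mean and SD, of the 6 genes past the threshold in at least 1 comparison, in BALBc hyperoxia, BALBc normoxia, C57 hyperoxia and C57 normoxia. Axes start at 0. Bub1b and Mcm6 are lower in all BALBc libraries than in all C57 libraries, and Cdkn2d is lower in BALBc normoxia (10.7 to 14.0 FPKM) than in the other groups.

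Among the chromosome and spindle genes, Kif20a, a kinesin of the central spindle, differed between strains in normoxia (GRCm38 chr18:34624613-34633277, plus strand). It was at 1.0, 0.721, 0.653 and 0.845 FPKM in BALBc hyperoxia and 1.17, 0.847, 1.22 and 1.2 FPKM in BALBc normoxia. In C57, Kif20a was at 0.764, 0.866, 0.629 and 0.507 FPKM in hyperoxia and 0.408, 0.491, 0.624 and 0.387 FPKM in normoxia. All BALBc normoxia libraries were above all C57 normoxia libraries, whereas the hyperoxia groups of the strains overlapped. The log2 difference was 0.13 (SE 0.17, adjusted p = 0.611) in hyperoxia and 0.72 (SE 0.17, adjusted p = 0.0147) in normoxia by limma, and the mean in BALBc normoxia was 2.32 times that in C57 normoxia. Hyperoxia gave -0.30 (SE 0.17, adjusted p = 0.456) in BALBc and 0.28 (SE 0.17, adjusted p = 0.513) in C57, with an adjusted p of 0.475 for their difference. Of its exon bases, 29.3% overlap Cdc23 on the opposite strand, and its values did not come out as whole reads in every library, so its level is uncertain. The call in normoxia was lost (adjusted p = 0.0852) without the 4 libraries low in Gnat1.

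Kif11, the motor that pushes spindle poles apart, was at 0.589, 0.724, 1.12 and 1.11 FPKM in BALBc hyperoxia and 1.14, 1.22, 1.0 and 1.07 FPKM in BALBc normoxia. In C57, Kif11 was at 0.956, 1.23, 0.959 and 0.768 FPKM in hyperoxia and 0.749, 0.983, 0.984 and 0.859 FPKM in normoxia. Its lowest BALBc normoxia library was just above its highest C57 normoxia library, and the log2 difference was 0.21 (SE 0.17, adjusted p = 0.504) by limma. Its change was -0.23 (SE 0.17, adjusted p = 0.561) with hyperoxia in BALBc and 0.08 (SE 0.17, adjusted p = 0.881) in C57, where the groups overlapped, and the strains differed by -0.10 (SE 0.17, adjusted p = 0.689) in hyperoxia. Cenpe, a kinesin that carries chromosomes along the spindle from their kinetochores, had 0.797, 0.996, 1.05 and 0.644 FPKM in BALBc hyperoxia and 1.31, 1.07, 1.36 and 1.52 FPKM in BALBc normoxia. In C57, Cenpe was at 0.739, 0.825, 0.625 and 0.507 FPKM in hyperoxia and 0.693, 0.605, 1.01 and 0.925 FPKM in normoxia. In BALBc all hyperoxia libraries were below all normoxia libraries, and BALBc normoxia was also above C57 normoxia in every library. Neither passed: the limma log2 change in BALBc was -0.41 (SE 0.17, adjusted p = 0.297) and the strain difference in normoxia 0.48 (SE 0.17, adjusted p = 0.0958). The values were -0.15 (SE 0.17, adjusted p = 0.751) for hyperoxia in C57 and 0.22 (SE 0.17, adjusted p = 0.369) for the strains in hyperoxia. Nusap1, which binds spindle microtubules, lay between 0.509 and 1.38 FPKM with overlapping groups in all 4 comparisons of pairs of groups.

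Among the low genes of this role, Top2a and Prc1 had the clearest separations. Top2a, the topoisomerase that untangles sister chromosomes, was at 0.176, 0.232, 0.243 and 0.18 FPKM in BALBc hyperoxia and 0.277, 0.261, 0.149 and 0.226 FPKM in BALBc normoxia. In C57, Top2a was at 0.139, 0.138, 0.197 and 0.208 FPKM in hyperoxia and 0.482, 0.49, 0.329 and 0.336 FPKM in normoxia. All 4 C57 hyperoxia libraries were below all 4 C57 normoxia libraries (22 to 39 reads against 68 to 101 reads), and the mean was 0.417 times that of C57 normoxia, while the BALBc groups overlapped. In the fit with the 0.1 FPKM filter, where 0.0458% of all genes passed in C57, the log2 change was -0.44 (SE 0.11, adjusted p = 0.128) in C57 and -0.04 (SE 0.11, adjusted p = 0.921) in BALBc by limma, and neither passed. The C57 hyperoxia libraries were all of female type and 3 of the C57 normoxia libraries of male type, and the part of sex in the Top2a values was not tested. Prc1, which bundles microtubules at the central spindle, was at 0.21, 0.274, 0.119 and 0.151 FPKM in BALBc hyperoxia and 0.17, 0.154, 0.118 and 0.36 FPKM in BALBc normoxia. In C57, Prc1 was at 0.457, 0.406, 0.568 and 0.655 FPKM in hyperoxia and 0.669, 0.789, 0.495 and 0.422 FPKM in normoxia. Every BALBc library was below every C57 library. With that filter 14% of all genes passed between strains in hyperoxia and 6.33% in normoxia, and the difference of Prc1 was -0.57 (SE 0.15, adjusted p = 0.0182) in hyperoxia and -0.64 (SE 0.15, adjusted p = 0.0147) in normoxia by limma, past the threshold in both. An overlap with Rccd1 on the opposite strand covers 11.1% of its exon bases. Mki67, the protein that coats mitotic chromosomes, lay between 0.0856 and 0.561 FPKM, and all groups overlapped. Tpx2, which activates Aurka, was at 0.411 to 0.631 FPKM in BALBc hyperoxia, above the 0.265 to 0.38 FPKM of C57 hyperoxia in every library, with a limma log2 difference of 0.30 (SE 0.14, adjusted p = 0.164). Kif23, a motor of cytokinesis, was lower in every hyperoxia library than in every normoxia library of its strain, at 0.0292 to 0.0913 FPKM in BALBc hyperoxia against 0.103 to 0.16 FPKM in BALBc normoxia and 0.00609 to 0.075 FPKM in C57 hyperoxia against 0.0762 to 0.128 FPKM in C57 normoxia. These values rest on 4 to 15 reads in BALBc hyperoxia against 17 to 26 reads in BALBc normoxia, and on 1 to 11 reads in C57 hyperoxia against 14 to 19 reads in C57 normoxia. The limma log2 changes of -0.15 (SE 0.08, adjusted p = 0.475) in BALBc and -0.13 (SE 0.08, adjusted p = 0.611) in C57 did not pass. Cenpf, a kinetochore protein, had a mean of 0.102 FPKM, and its groups overlapped.

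Of the 6 replication genes tested, Mcm6, a subunit of the helicase that unwinds DNA at the fork, was the one whose strain groups were apart in both oxygen conditions (GRCm38 chr1:128331590-128359664, minus strand). Its levels were 0.587, 0.448, 0.494 and 0.369 FPKM in BALBc hyperoxia and 0.844, 0.699, 0.795 and 0.947 FPKM in BALBc normoxia. In C57, Mcm6 was at 1.82, 1.69, 1.6 and 1.7 FPKM in hyperoxia and 1.87, 2.51, 1.95 and 2.39 FPKM in normoxia. Every BALBc library was below every C57 library, and within each strain every hyperoxia library was below every normoxia library. Means were 0.475 ± 0.0911 FPKM in BALBc hyperoxia and 1.7 ± 0.089 FPKM in C57 hyperoxia, and 0.821 ± 0.103 FPKM in BALBc normoxia and 2.18 ± 0.315 FPKM in C57 normoxia (SD, n = 4 each). The strain difference was -1.18 (SE 0.13, adjusted p = 1.85e-05) in hyperoxia and -1.02 (SE 0.13, adjusted p = 0.0001) in normoxia by limma, past the threshold in all 29 other settings in both. Its changes with hyperoxia missed the threshold: -0.44 (SE 0.13, adjusted p = 0.156) in BALBc, -0.28 (SE 0.13, adjusted p = 0.385) in C57 and -0.36 (SE 0.09, adjusted p = 0.0626) for their mean. The mean response passed with the rod covariate (adjusted p = 0.0252), with voom (0.0455) and without BALBc hyperoxia replicate 1 (0.0448), and in 3 of 28 other settings in all. The mean FPKM with hyperoxia was 0.578 times that of normoxia in BALBc and 0.78 times in C57. Its promoter, printed above, held 3 E2F matches, of which 2 overlap, and no exon base of Mcm6 is shared with another annotated gene.

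Of the other 5 subunits of this helicase, Mcm2, Mcm4, Mcm5 and Mcm7 passed the filter. By limma 0 of these 4 was called in any comparison, with strain differences between -0.21 and 0.15 in normoxia and between -0.11 and 0.26 in hyperoxia. In hyperoxia voom called Mcm2, higher in BALBc than in C57, and without the 4 libraries low in Gnat1 limma called Mcm7 between the strains. Mcm7, the subunit with the highest level, was at 6.78, 5.03, 4.64 and 5.63 FPKM in BALBc hyperoxia and 5.25, 4.85, 5.07 and 4.61 FPKM in BALBc normoxia. In C57, Mcm7 was at 5.53, 5.73, 6.12 and 6.47 FPKM in hyperoxia and 6.44, 6.26, 5.4 and 5.2 FPKM in normoxia. Its groups overlapped in every pair, and the log2 values were 0.13 (SE 0.11, adjusted p = 0.601) with hyperoxia in BALBc, 0.03 (SE 0.11, adjusted p = 0.924) in C57, -0.11 (SE 0.11, adjusted p = 0.474) between strains in hyperoxia and -0.21 (SE 0.11, adjusted p = 0.248) in normoxia by limma. Part of its exon bases is shared with Ap4m1 (7.25%) and Cops6 (1.45%) on the opposite strand and with the microRNAs Mir25 and Mir93. Mcm2 was at 1.53, 1.58, 1.5 and 1.77 FPKM in BALBc hyperoxia and 1.29, 1.37, 1.35 and 1.47 FPKM in BALBc normoxia. These groups were apart, but the log2 change of 0.16 (SE 0.11, adjusted p = 0.531) did not pass in limma. Mcm3, under the filter, lay between 0.349 and 1.10 FPKM. The sum over Mcm2 to Mcm7 was 12.3 to 14.96 FPKM in BALBc hyperoxia, 11.9 to 13.9 FPKM in BALBc normoxia, 13.6 to 15.2 FPKM in C57 hyperoxia and 14.8 to 15.8 FPKM in C57 normoxia.

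Pcna, the clamp that holds DNA polymerases on their template, was higher in BALBc than in C57 under hyperoxia (GRCm38 chr2:132249162-132253314, minus strand). It was at 35, 44.9, 47.1 and 47.1 FPKM in BALBc hyperoxia and 32.7, 36.6, 35.7 and 31.5 FPKM in BALBc normoxia. In C57, Pcna was at 33.6, 32.8, 31 and 30.1 FPKM in hyperoxia and 29.8, 25.2, 39.5 and 32.6 FPKM in normoxia. All BALBc hyperoxia libraries were above all C57 hyperoxia libraries, with replicate 1 of BALBc hyperoxia close to them, and the other pairs of groups overlapped. The mean was 43.5 ± 5.75 FPKM in BALBc hyperoxia and 31.9 ± 1.61 FPKM in C57 hyperoxia (SD, n = 4 each), and the log2 difference 0.43 (SE 0.12, adjusted p = 0.0209) by limma. The difference was 0.12 (SE 0.12, adjusted p = 0.633) in normoxia, and hyperoxia gave 0.34 (SE 0.12, adjusted p = 0.226) in BALBc and 0.02 (SE 0.12, adjusted p = 0.961) in C57, with 0.32 (SE 0.18, adjusted p = 0.587) for their difference. The call in hyperoxia held in 24 of 29 other settings and was lost with TPM scaling (adjusted p = 0.0501), with the sex covariate (0.0824), and without BALBc hyperoxia replicate 2 (0.0523), 3 (0.0598) or 4 (0.0615). BALBc hyperoxia replicate 1 had the lowest Pcna and the lowest Gnat1 of its group, and replicate 4 had the second lowest Gnat1 and a Pcna level like that of replicate 3. Within C57 normoxia the libraries had the same order in Pcna as in Gnat1. Within C57 hyperoxia they had the opposite order, and within BALBc normoxia neither order held.

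Of the deoxynucleotide genes, Rrm1, the large subunit of ribonucleotide reductase, lies at GRCm38 chr7:102441695-102469771, plus strand. Rrm1 was at 2.85, 4.13, 3.81 and 3.31 FPKM in BALBc hyperoxia and 3.08, 3.52, 3.53 and 2.84 FPKM in BALBc normoxia. In C57, Rrm1 was at 2.75, 2.78, 2.62 and 2.75 FPKM in hyperoxia and 3.15, 3.22, 3.5 and 2.94 FPKM in normoxia. The C57 hyperoxia libraries lay in a narrow band below all BALBc hyperoxia libraries and all C57 normoxia libraries. The strain difference in hyperoxia was 0.31 (SE 0.11, adjusted p = 0.0475) by limma, just past the threshold, and it held in 9 of 29 other settings, with adjusted p between 0.00824 and 0.35. Of the 16 libraries left out in turn, only BALBc hyperoxia replicate 1 (0.011) and BALBc normoxia replicate 4 (0.0458) left the call in place, and each of the other 14 ended it, with adjusted p between 0.0511 and 0.147. It was also lost with TPM scaling (0.35), the sex covariate (0.13), the rod covariate (0.108), the compared groups alone (0.128), the 0.1 FPKM filter (0.0779) and no filter (0.0814). The change with hyperoxia was 0.10 (SE 0.11, adjusted p = 0.722) in BALBc and -0.20 (SE 0.11, adjusted p = 0.45) in C57, and in normoxia the strains differed by 0.01 (SE 0.11, adjusted p = 0.959). Tyms, thymidylate synthase, was under the filter at 0.837, 0.555, 0.692 and 0.534 FPKM in BALBc hyperoxia and 0.573, 0.87, 0.795 and 0.765 FPKM in BALBc normoxia. In C57, Tyms was at 0.495, 0.637, 0.651 and 0.75 FPKM in hyperoxia and 0.784, 1.16, 0.918 and 0.651 FPKM in normoxia. Its groups overlapped, and the fit with the lower filter gave -0.12 (SE 0.15, adjusted p = 0.799) with hyperoxia in BALBc, -0.27 (SE 0.15, adjusted p = 0.52) in C57, 0.02 (SE 0.15, adjusted p = 0.944) between strains in hyperoxia and -0.13 (SE 0.15, adjusted p = 0.689) in normoxia. Rrm2, the small subunit, whose supply follows the S phase, was at 0.26, 0.31, 0.396 and 0.0518 FPKM in BALBc hyperoxia and 0.234, 0.278, 0.0194 and 0.158 FPKM in BALBc normoxia. In C57, Rrm2 was at 0.0616, 0.0972, 0.568 and 0.382 FPKM in hyperoxia and 0.264, 0.768, 0.548 and 0.691 FPKM in normoxia. In C57 hyperoxia replicates 1 and 2 were low and replicates 3 and 4 higher, with 3 to 31 reads in that group, and all pairs of groups overlapped.

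The G1 cyclins were of moderate level. Ccnd1, cyclin D1, the partner of CDK4 and CDK6 and the main D-type cyclin of mouse retinal progenitors, was at 4.81, 3.91, 4.64 and 3.33 FPKM in BALBc hyperoxia and 3.94, 4.45, 2.94 and 3.96 FPKM in BALBc normoxia. In C57, Ccnd1 was at 3.58, 3.76, 5.45 and 4.7 FPKM in hyperoxia and 5.24, 5.68, 4.86 and 5.79 FPKM in normoxia. All C57 normoxia libraries were above all BALBc normoxia libraries, and the log2 difference of -0.46 (SE 0.14, adjusted p = 0.0597) by limma just missed the threshold, which it passed in 6 of 29 other settings with adjusted p between 0.0401 and 0.182 over the settings. The changes with hyperoxia were 0.11 (SE 0.14, adjusted p = 0.771) in BALBc and -0.29 (SE 0.14, adjusted p = 0.403) in C57, and in hyperoxia the strains differed by -0.05 (SE 0.14, adjusted p = 0.818). LTO1 on the opposite strand shares 23.4% of the exon bases of Ccnd1, so its level is uncertain. Ccne1, cyclin E1, the partner of CDK2 at the start of S phase, was at 1.21, 1.63, 1.52 and 0.719 FPKM in BALBc hyperoxia and 0.824, 1.02, 1.25 and 0.711 FPKM in BALBc normoxia. In C57, Ccne1 was at 1.6, 1.82, 1.89 and 1.3 FPKM in hyperoxia and 1.6, 1.56, 1.22 and 1.24 FPKM in normoxia. Its groups overlapped in every pair, with 0.27 (SE 0.19, adjusted p = 0.548) for hyperoxia in BALBc, 0.17 (SE 0.19, adjusted p = 0.736) in C57, -0.31 (SE 0.19, adjusted p = 0.25) between strains in hyperoxia and -0.40 (SE 0.19, adjusted p = 0.211) in normoxia.

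The CDK inhibitor Cdkn2d, of the INK4 family that blocks CDK4 and CDK6, was the gene that hyperoxia changed in BALBc (GRCm38 chr9:21288410-21291407, minus strand). It was at 18.3, 19.8, 20.1 and 19.1 FPKM in BALBc hyperoxia and 13.6, 14, 12.2 and 10.7 FPKM in BALBc normoxia. In C57, Cdkn2d was at 16.9, 14.8, 17.2 and 18.8 FPKM in hyperoxia and 22, 16.7, 17 and 17.8 FPKM in normoxia. All 4 BALBc hyperoxia libraries were above all 4 BALBc normoxia libraries, and BALBc normoxia was below every other group in every library, while C57 hyperoxia overlapped with C57 normoxia. Means were 19.3 ± 0.804 FPKM in BALBc hyperoxia and 12.6 ± 1.5 FPKM in BALBc normoxia, a ratio of 1.53. In C57 they were 16.9 ± 1.66 FPKM in hyperoxia and 18.4 ± 2.46 FPKM in normoxia (SD, n = 4 each), a ratio of 0.923. The log2 change was 0.60 (SE 0.10, adjusted p = 0.0362) in BALBc and -0.11 (SE 0.10, adjusted p = 0.704) in C57 by limma. The difference of the responses was 0.71 (SE 0.15, adjusted p = 0.245), so that the responses of the strains were not shown to differ, with an unadjusted p of 0.000213. Between strains, Cdkn2d was lower in BALBc than in C57 in normoxia, with a log2 difference of -0.52 (SE 0.10, adjusted p = 0.00414), past the threshold in all 29 other settings, and the difference in hyperoxia was 0.19 (SE 0.10, adjusted p = 0.213).

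The BALBc response of Cdkn2d passed in 16 of 29 other settings, with adjusted p between 0.00413 and 0.157 and log2 changes between 0.45 and 0.65. It was lost without BALBc hyperoxia replicate 2 (0.0735), 3 (0.0754) or 4 (0.0966), BALBc normoxia replicate 1 (0.0616), 3 (0.0933) or 4 (0.132), C57 hyperoxia replicate 1 (0.0534) or 3 (0.0582), or C57 normoxia replicate 4 (0.0551), and also with no filter (0.0622), with the compared groups alone (0.0672) and with the replicate number as a block (0.0577). TPM scaling, with which the median of all genes in this comparison was -0.15, gave Cdkn2d a log2 change of 0.45 (adjusted p = 0.157). Within BALBc hyperoxia the libraries had the same order in Cdkn2d as in Gnat1. Cdkn2d was at 18.3, 19.1, 19.8 and 20.1 FPKM where Gnat1 was at 608, 1095, 2575 and 2804 FPKM. Within the other groups that order did not hold. In BALBc normoxia the library with the most Gnat1 (2964 FPKM) had the least Cdkn2d (10.7 FPKM). In C57 normoxia the library with the most Cdkn2d had Gnat1 at only 612 FPKM. In C57 hyperoxia the same library was highest in both. With the rod covariate the log2 change of Cdkn2d in BALBc was 0.60 (limma adjusted p = 0.00413). With the sex covariate the call was kept, and it remained the 1 gene of the 19 called in BALBc. Its exons span 1574 bases, against a median of 3837 over the genes tested, and short genes tended to have higher changes in BALBc (Spearman correlation across 14935 genes of -0.161 between exon length and log2 change, and -0.037 in C57, with genes not independent). The part of gene length in the Cdkn2d change was not tested.

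Cdkn1b, the inhibitor of the CIP/KIP family that in mice holds neurons out of the cycle together with Cdkn2d, was at 29.5, 26.5, 29.9 and 37.1 FPKM in BALBc hyperoxia and 30.4, 31.8, 31.9 and 26.6 FPKM in BALBc normoxia. In C57, Cdkn1b was at 26.6, 28.5, 21.4 and 21.1 FPKM in hyperoxia and 27.1, 22.7, 26.2 and 22.4 FPKM in normoxia. Its response to hyperoxia was 0.02 (SE 0.12, adjusted p = 0.959) in BALBc and -0.02 (SE 0.12, adjusted p = 0.961) in C57 by limma, with groups that overlapped. It was 0.33 (SE 0.12, adjusted p = 0.0615) between strains in hyperoxia and 0.29 (SE 0.12, adjusted p = 0.162) in normoxia, neither of them past the threshold.

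Summed over the 23 mitotic genes (both mitotic roles), BALBc hyperoxia was at 16.3, 15.5, 14.5 and 15.1 FPKM, BALBc normoxia at 19.6, 17.1, 19.8 and 21.4 FPKM, C57 hyperoxia at 16.7, 17.9, 18.9 and 17.4 FPKM and C57 normoxia at 19.0, 19.9, 16.6 and 16.8 FPKM. The BALBc groups did not overlap and the C57 groups did. Ccna2, with a mean of 4.80 FPKM over the 16 libraries, was the largest part of this sum. Without it the sums were 9.50 to 12.5 FPKM in BALBc hyperoxia and 12.0 to 14.96 FPKM in BALBc normoxia, which overlapped, and 12.6 to 14.8 FPKM in C57 hyperoxia and 12.7 to 14.6 FPKM in C57 normoxia.

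Summed markers of vessel cells were lower with hyperoxia in both strains, whereas the mitotic sums of the C57 groups overlapped. The summed level of 15 endothelial markers was 23.7 to 39.7 FPKM in BALBc hyperoxia and 44.2 to 56.4 FPKM in BALBc normoxia, and 46.2 to 51.2 FPKM in C57 hyperoxia and 58.9 to 81.5 FPKM in C57 normoxia. None of the 15 genes was at 0 in any library. Of the 13 endothelial markers tested, 12 had lower values with hyperoxia in BALBc and 12 in C57. In BALBc 2 passed the threshold in limma, against 0.161% of all genes. In C57 0 passed in limma, against 0.334% of all genes, and 0 in voom, with 8 at an unadjusted p under 0.05 in limma, against 13.3% of all genes. The 8 pericyte markers summed to 6.09 to 22.1 FPKM in BALBc hyperoxia and 23.1 to 29.8 FPKM in BALBc normoxia, and to 14.6 to 24.0 FPKM in C57 hyperoxia and 36.0 to 40.6 FPKM in C57 normoxia. Tagln was the only pericyte marker at 0 in any library. The endothelial and pericyte sums of the hyperoxia libraries did not overlap those of the normoxia libraries in either strain. The 5 erythroid genes summed to 20.65 to 85.3 FPKM in BALBc hyperoxia and 56.35 to 264 FPKM in BALBc normoxia, and to 30.15 to 79.5 FPKM in C57 hyperoxia and 30.6 to 63.5 FPKM in C57 normoxia. The 10 microglia markers summed to 58.6 to 88.8 FPKM in BALBc hyperoxia and 54.8 to 67.1 FPKM in BALBc normoxia, and to 49.6 to 61.0 FPKM in C57 hyperoxia and 49.0 to 66.2 FPKM in C57 normoxia. The part of any of these cells in the values of the cell cycle genes was not tested.

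**Figure D5:**
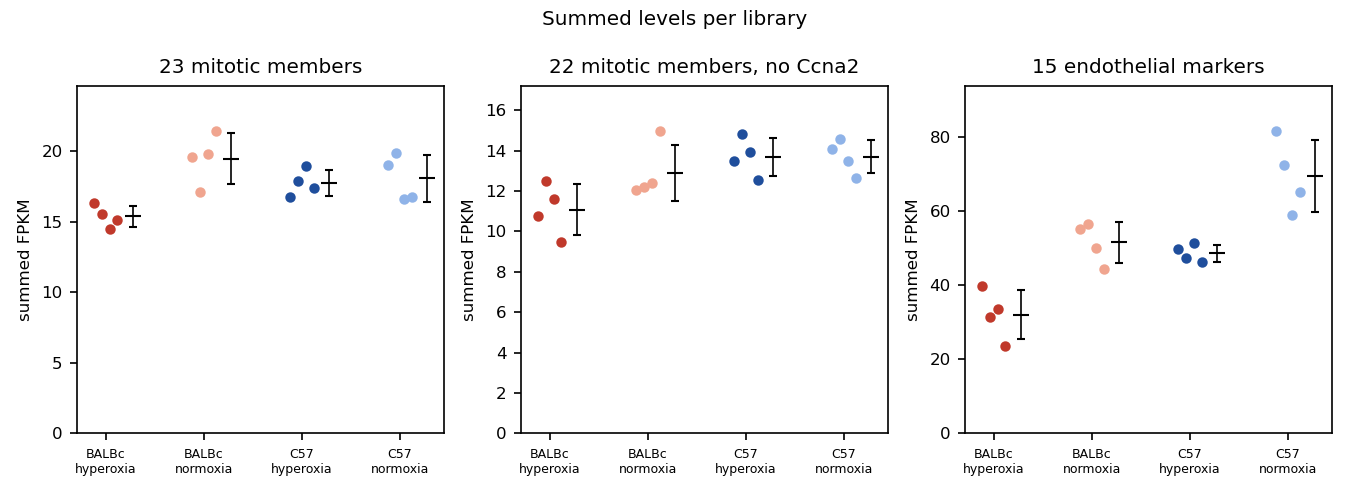
Summed FPKM per library, with mean and SD, of the 23 mitotic genes, of the same genes without Ccna2, and of 15 endothelial markers, in BALBc hyperoxia, BALBc normoxia, C57 hyperoxia and C57 normoxia. Axes start at 0. The mitotic sum of BALBc hyperoxia (14.5 to 16.3 FPKM) lies below that of BALBc normoxia (17.1 to 21.4 FPKM), and without Ccna2 these groups overlap, while the endothelial sum is lower with hyperoxia in both strains.

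In the wider pathway no gene passed the threshold with hyperoxia, and several passed it between strains. Of 30 other mitosis genes 10 were tested, of 38 other replication genes 28, and of 22 other cyclin, CDK, CDK inhibitor, RB and E2F genes 16. Hyperoxia put 0 of these 54 genes past the threshold in BALBc and 0 in C57 by limma, where 0.161% and 0.334% of all genes passed, and voom also called 0 in each. An unadjusted p under 0.05 was found for 7 of the 54 in BALBc and 8 in C57, near the 14.2% and 13.3% of all genes. In BALBc the lowest p of each list belonged to Cks1b, a CDK-binding protein (log2 change 0.62, SE 0.22, adjusted p = 0.209 in limma), Rpa3, a subunit of the single-stranded DNA binding complex (0.56, SE 0.15, adjusted p = 0.124), and Cdkn1c, a CDK inhibitor (0.39, SE 0.14, adjusted p = 0.218). Next in these lists were Racgap1 (-0.51, SE 0.18), Dut (0.31, SE 0.13) and E2f3 (0.18, SE 0.11), with limma adjusted p of 0.214, 0.295 and 0.498. In C57 the lowest p belonged to Ect2, an exchange factor of cytokinesis (-0.46, SE 0.17, adjusted p = 0.247 in limma), Pola1, the catalytic subunit of DNA polymerase alpha (-0.41, SE 0.13, adjusted p = 0.182), and Cdk6 (-0.49, SE 0.17, adjusted p = 0.21). After these came Cks1b (0.43, SE 0.22), Rfc1 (-0.27, SE 0.09) and Cdkn1c (0.35, SE 0.14), with limma adjusted p of 0.407, 0.215 and 0.279.

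Between strains, 4 of the 10 other mitosis genes passed in hyperoxia and 4 in normoxia (2 higher and 2 lower in BALBc each time), 6 and 2 of the 28 other replication genes passed, all higher in BALBc, and 3 (1 higher, 2 lower) and 1 (lower) of the 16 in the third list. Among all genes 22.6% passed in hyperoxia and 9.08% in normoxia. Pttg1, securin, which keeps sister chromatids from separating before anaphase, had the largest difference among them. It was at 0.144, 0.268, 0 and 0.191 FPKM in BALBc hyperoxia and 0.20, 0.385, 0.107 and 0 FPKM in BALBc normoxia. In C57, Pttg1 was at 4.04, 5.2, 4.75 and 5.34 FPKM in hyperoxia and 4.66, 3.94, 6.11 and 5.88 FPKM in normoxia. Every BALBc library was at or below 0.385 FPKM, with 2 of the 8 listed at 0, and every C57 library was at or above 3.94 FPKM, with limma log2 differences of -3.04 (SE 0.20, adjusted p = 2.32e-08) in hyperoxia and -3.08 (SE 0.20, adjusted p = 2.11e-08) in normoxia. Whether BALBc reads of Pttg1, or of the other genes lower in BALBc, were lost in alignment to the C57BL/6J assembly was not tested.

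Racgap1, which works with Kif23 in cytokinesis, was at 3.37, 4.21, 3.45 and 4.2 FPKM in BALBc hyperoxia and 5.57, 4.87, 6.2 and 5.81 FPKM in BALBc normoxia. In C57, Racgap1 was at 1.21, 1.48, 2.03 and 2.81 FPKM in hyperoxia and 1.86, 1.61, 2.27 and 2.69 FPKM in normoxia. It was higher in every BALBc library than in every C57 library, by 0.89 in hyperoxia (adjusted p = 0.00301) and 1.24 in normoxia (adjusted p = 0.000273) on the log2 scale in limma. Cdkn1a, the CDK inhibitor under p53 control, had 1.48, 2.14, 1.83 and 1.23 FPKM in BALBc hyperoxia and 1.36, 2.15, 1.23 and 1.31 FPKM in BALBc normoxia. In C57, Cdkn1a was at 5.76, 5.79, 3.87 and 3.11 FPKM in hyperoxia and 3.69, 3.4, 2.86 and 3.03 FPKM in normoxia. It was lower in every BALBc library than in every C57 library, by a log2 difference of -1.22 in hyperoxia (adjusted p = 0.000503) and -0.91 in normoxia (adjusted p = 0.00714) in limma. Within C57 hyperoxia, replicates 1 and 2 stood above replicates 3 and 4, the same division of libraries as for Rrm2.

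Cdt1, which loads the MCM helicase at origins, was at 3.77, 3.28, 3.14 and 3.61 FPKM in BALBc hyperoxia and 3.3, 2.78, 2.93 and 2.49 FPKM in BALBc normoxia. In C57, Cdt1 was at 3.37, 2.21, 1.1 and 0.888 FPKM in hyperoxia and 0.89, 1.1, 1.11 and 1.05 FPKM in normoxia. In normoxia every BALBc library was above every C57 library, and in hyperoxia C57 replicate 1 lay within the range of BALBc, with log2 differences of 0.84 and 1.13 past the threshold in limma (adjusted p = 0.00626 in normoxia). The others past the threshold in both conditions were Mad2l1, of the spindle checkpoint, and Gins4, of the replicative helicase, both higher in BALBc, and Cks1b, lower in BALBc. In hyperoxia alone the list of those past it was Pola1 (0.68, limma adjusted p = 0.00225), Rpa3 (0.69, adjusted p = 0.00575), Rfc1 (0.31), Pold1 (0.45) and Cdk6 (0.58), higher in BALBc, and E2f1 (-0.69), lower in BALBc. That these were past the threshold in one condition does not show that the strain difference depended on oxygen, since limma called 0 of the 54 genes for the difference of the responses, with 3 at an unadjusted p under 0.05 against 9.56% of all genes, and voom also called 0.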

How the data were processed

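RNA of whole retinas was extracted with TRIzol and made into NEBNext Ultra II libraries, per the labels' protocols. Reads were aligned with HISAT2 2.0.5 to GRCm38 (mm10) and counted with featureCounts 1.5.0-p3, per the submitters' processing notes; the strand setting is not given in the sources used here. The values the authors deposited are FPKM per gene and library. The table held 0 other per-sample columns, and GENCODE mouse release 21, which holds 54409 of the 54532 gene IDs, gave back 27 gene names stored as dates.

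The low values were whole multiples of 1 read, so reads were recovered from the FPKM: 97.1% to 97.5% of values of up to 1000 reads came out whole within 0.01 read, and recovered totals were 0.884 to 1.15 times the library size that the step implies. The deposited FPKM were therefore not scaled by the read total. TMM scaling moved the libraries by only -0.0269 to 0.0563 on the log2 scale, so that setting nearly repeats the main fit. TPM scaling replaces the deposited scaling. For 35 of the 37 genes reads were whole in all 16 libraries, and not for Kif11 and Kif20a. No library duplicated another (0 pairs with identical values; within-group correlations of log2 values across genes 0.937 to 0.979). Reads are not independent molecules, so a limit from 0 reads (3 reads) covers counting error only.

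Genes that reached 1 FPKM in 4 or more libraries were tested as log2(FPKM + 0.5) with limma 3.58.1 in R 4.3.3 and the data.table package, version 1.17.8. The model had 1 coefficient per group over all 16 libraries, empirical Bayes with a trend, two-sided, with Benjamini-Hochberg adjustment over all genes tested and a threshold of 0.05. It gave 6 comparisons: the oxygen response of BALBc, that of C57, the mean and the difference of both responses, and the strain difference under hyperoxia and under normoxia. The model was tested on simulated data with known changes. Python 3.11.15 was used with numpy 2.4.6, matplotlib 3.10.9, pandas 2.3.3 and scipy 1.17.1.

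The 37 genes, the pathway and marker lists and the tests were chosen with earlier results of these data known. Full values are given for every gene past the threshold in a comparison and for the 2 of highest mean in each role; other genes with an unadjusted p under 0.01 get their values, and the rest ranges and counts. In the pathway lists the genes named are those past the threshold, or else the 2 of lowest p in each list. Alternatives were 2 other pseudocounts (0.1 and 1), 2 other filters, TPM and TMM scaling, the compared groups alone, covariates for sex (from Ddx3y, with 0.1 FPKM added) and for rod content, the replicate number as a block, and each library left out. Added after seeing the data were voom on recovered reads, with the same filter or with 10 reads in 4 libraries, and the fit without the 4 libraries low in Gnat1. The 2 planned count tests on recovered reads were not run, since the deposited values are FPKM. Another marker of retinal progenitors is not reported here.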

Additional observations from a re-analysis of the deposited data

Results flagged for a closer look

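A single library stood away from the other 3 of its group in 4 of the 148 groups of 4 examined (37 genes in 4 groups), where chance alone would mark about 1 group in 20. Kif20a was lowest in BALBc normoxia replicate 2, at 0.847 FPKM, while the other 3 libraries lay at 1.17 to 1.22 FPKM, and this library remained above all C57 normoxia libraries. Cenpf was highest in BALBc normoxia replicate 1, at 0.162 FPKM. Aurkb at 0.271 FPKM and Kif23 at 0.128 FPKM were both highest in C57 normoxia replicate 2. The causes were not tested.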

How the results depend on the processing

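The 14 log2 changes followed through the alternatives were those with limma unadjusted p under 0.01 or past the threshold in these same data. A change of sign was thus unlikely from the start, and none of the 14 changed sign. Values near 0 did: Rrm1 between strains in normoxia was 0.01 in limma and -0.02 with voom, and the median of the 19 genes for hyperoxia in BALBc lay between -0.14 and 0.09. The number of the 37 genes called for hyperoxia in BALBc, 1 as reported, was 0 with no filter, with TPM scaling, with the compared groups alone and with the replicate number as a block, 2 with the rod covariate (Pcna and Cdkn2d) and 3 without the 4 libraries low in Gnat1. That last setting also gave 3 for the difference of the responses (Pcna and Cdkn2d higher, Ccna2 lower), in place of 0, with 2036 of all genes called (13.6%, against 0). It leaves 2 libraries in 2 groups, and removing libraries by a measured value can narrow the spread of a group. For the mean response the count was 1 (Mcm6), in place of 0, with the rod covariate and with voom. For BALBc against C57 it was 2 in hyperoxia with TPM scaling, in place of 4, and 8 in normoxia with voom at 10 reads, in place of 4. Leaving out 1 library at a time gave 0 to 1 for hyperoxia in BALBc, 0 to 0 in C57, 0 to 1 for their mean (1 without BALBc hyperoxia replicate 1), 0 to 0 for their difference, 2 to 4 for the strains in hyperoxia (2 without BALBc hyperoxia replicate 3) and 4 to 5 in normoxia. Causes were not tested. With the replicate block the counts for the strains were 4 and 4, and 0 for each hyperoxia comparison. The labels do not say that equal replicate numbers mark a pair. Deviations from the group means had correlations between -0.26 and 0.22 in same-numbered libraries, over 0.1 in 4 of 16 pairs. The own number correlated best in 3 of 16. This check cannot exclude a shared litter or day, since all other variation between libraries enters it. Depth limits the lowest genes most, such as Aurkb with 1 to 15 reads a library.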
